A study of Bos taurus with 12 samples.

Results

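The miRNAs bta-miR-378, bta-miR-224 and bta-miR-383, known from work on steroid production by granulosa cells, were followed in bovine granulosa cells. The related names bta-miR-378b and bta-miR-378c were followed with them. The cells were taken early in the luteal phase, at day 3 or at day 7 of the cycle, from the subordinate (SF) or the dominant follicle class (DF). They were chosen by name, and all 5 of the names sought were among the 755 mature miRNA names of the deposited counts. The cells came from Simmental heifers whose estrus had been synchronized with the prostaglandin analogue cloprostenol and the GnRH analogue buserelin, and different heifers were slaughtered on the 2 days. There were 4 groups, SF at day 3, DF at day 3, SF at day 7 and DF at day 7, with 3 biological replicates each. Follicles were called SF or DF by diameter, with other limits on each day, and the follicular contents were pooled by size class. A library can thus hold several follicles. The paper counted only 3 follicles as DF at day 7, however, so each library of that group may stand for 1 follicle. The labels do not tie a replicate to an animal, so p-values measure the spread between these libraries.

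Counting only the entry kept for each miRNA name, the libraries held between 160418 and 405129 reads on known miRNAs. Over all listed entries the totals were 220032 to 539653. Of the kept reads, 3 reads made between 0.000741% and 0.00187% of a library, a limit that covers counting error only. The gonad miRNA bta-miR-202, taken as the granulosa marker, had reads in all 12 libraries, but its mean was 698 ± 309 normalized counts (SD, n = 3) in DF at day 7 against 2667 ± 223.7 in SF of day 3, 3325 ± 302 in DF of day 3 and 2310 ± 143 in SF of day 7. A normalized count is the raw read count divided by the size factor of the library, the median of its ratios to the geometric mean of the 12 libraries. The summed level of 4 leukocyte miRNAs (miR-142-5p, miR-142-3p, miR-150 and miR-223) was between 783 and 8636 normalized counts in DF at day 7, with all 4 present, and between 108 and 705 in the other 9 libraries. Both kinds of marker thus set the DF libraries of day 7 apart, and replicate 2 of that group had the fewest reads, the lowest bta-miR-202 (364) and the highest leukocyte sum. In such samples, fewer cells of a type and less of a miRNA per cell cannot be told apart.

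Granulosa cells line the inside of the follicle and, under follicle stimulating hormone, turn androgens from the theca into estradiol with the enzyme aromatase (CYP19A1). A miRNA binds messenger RNAs through its seed and lowers the protein made from them. In granulosa cell cultures of other species, miR-378 is known to act on the aromatase messenger RNA, miR-224 is induced by transforming growth factor beta and acts on SMAD4, the shared mediator of that pathway, and miR-383 acts on the RNA binding protein RBMS1 and is known for raising estradiol output. None of these targets was measured here.

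The mature name bta-miR-378 was listed with 2 precursors, mir-378-1 and mir-378-2, with 7420 and 12313 reads over the 12 libraries, and the higher entry stands for the name below. The other 4 names had 1 precursor each. In the RefSeq annotation of the ARS-UCD2.0 assembly, which is not the UMD 3.1 build that the reads were aligned to, MIR378-1 lies within PPARGC1B, a coactivator gene of energy metabolism, MIR378-2 within CALCR, MIR378C within ZNF521 and MIR224 together with MIR452 within GABRE, while no protein coding gene spans MIR378B or MIR383. How reads were shared between the names and precursors of miR-378 is not given in the sources used here, so their separate counts are uncertain.

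The 5 miRNAs differed widely in abundance. As the mean over the 12 libraries, bta-miR-378 had 1013 normalized counts, bta-miR-224 107, bta-miR-378b 42.7, bta-miR-378c 27.0 and bta-miR-383 1.61, which put them at ranks 37, 108, 139, 155 and 272 of the 755 names. Between 0.264% and 0.754% of the kept reads of a library were those of bta-miR-378. All but bta-miR-383 had reads in every library. The order bta-miR-378, bta-miR-224, bta-miR-378b, bta-miR-378c and bta-miR-383 held for the group means of 3 groups. In DF at day 7 it was different, as bta-miR-224 had dropped below bta-miR-378b and bta-miR-378c there, and the ranges of these last 2 overlapped.

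**Figure D1:**
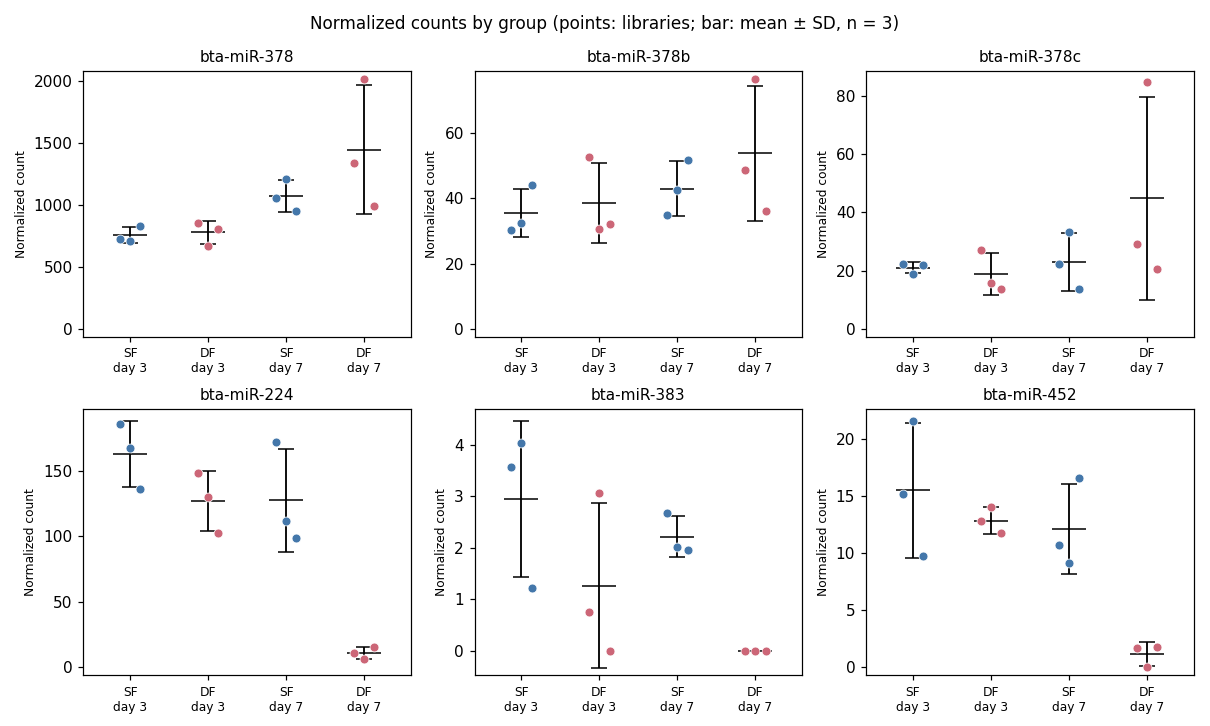
Normalized counts (vertical axes, linear) of the 5 miRNAs and of bta-miR-452 in SF (blue) and DF (red) at day 3 and day 7. Points are libraries in the order of replicates 1 to 3, and the bars give the mean and SD. For bta-miR-224 the 3 DF libraries of day 7 lie between 6.65 and 15.3, below all other libraries, and for bta-miR-378 they lie between 988 and 2013.

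The most distinct pattern was that of bta-miR-224. Its normalized counts in replicates 1, 2 and 3 were 185, 167 and 136 for SF and 148, 130 and 103 for DF on day 3, then 172, 111 and 98.4 for SF and 11.1, 6.65 and 15.3 for DF on day 7. In raw reads the DF libraries of day 7 had 13, 4 and 17, and the other 9 libraries between 101 and 213. These DF libraries were the lowest 3 of the 12, while the ranges of the other 3 groups overlapped each other.

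At day 7, bta-miR-224 was higher in SF than in DF, with means of 127 ± 39.3 and 11.02 ± 4.32 normalized counts (SD, n = 3; log2 fold change 3.55, standard error (SE) 0.38, edgeR adjusted p = 0.000159). It fell in DF from day 3 to day 7, from 127 ± 22.9 to 11.02 ± 4.32 (log2 fold change -3.48, SE 0.33, edgeR adjusted p = 9.41e-07). Both comparisons use the same DF libraries of day 7 and are not independent of each other. Between SF and DF at day 3 the log2 fold change was 0.31 (approximate 95% interval -0.08 to 0.70, adjusted p = 0.319, edgeR), and between day 7 and day 3 in SF it was -0.34 (-0.89 to 0.22, adjusted p = 0.74, edgeR). The test of the interaction, that is, of the day 7 difference of SF minus DF less that of day 3, gave a log2 value of 3.097 (SE 0.42, edgeR adjusted p = 2.74e-05).

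The drop of bta-miR-224 in DF was set against the granulosa marker in the same libraries, a comparison added after its values were seen. Per 100 reads of bta-miR-202 there were 4.73, 3.55 and 3.24 reads of bta-miR-224 in DF at day 3 and 1.48, 1.83 and 1.57 in DF at day 7. The SF libraries had 7.68, 6.07 and 4.78 on day 3, then 6.95, 5.03 and 4.39 on day 7. The DF mean went from 3.84 at day 3 to 1.62 at day 7 on this scale, a smaller fold than from 127 to 11.02 in normalized counts. The denominator itself fell in DF, from 3325 to 698 normalized counts, so the ratio moves with bta-miR-202. The DF libraries of day 7 were again the lowest 3 of the 12. Their summed leukocyte miRNAs were 3110, 8636 and 783 normalized counts, and the part of leukocyte RNA in the fall of bta-miR-224 was not tested.

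The neighbour of miR-224 within GABRE, bta-miR-452, had far fewer reads and the same order of groups at day 7. Its normalized counts were 15.2, 21.5 and 9.77 for SF and 12.8, 14.1 and 11.7 for DF on day 3, then 10.7, 9.10 and 16.6 for SF and 1.71, 0 and 1.8 for DF on day 7. The DF libraries of day 7 had at most 2 raw reads of it. Its log2 fold change was 3.13 between SF and DF at day 7 (SE 0.67, adjusted p = 0.00595, edgeR) and -3.18 between day 7 and day 3 in DF (SE 0.66, adjusted p = 0.00137, edgeR). Per 100 reads of bta-miR-224 there were on average 9.43 ± 3.05 reads of bta-miR-452 for SF and 10.3 ± 1.47 for DF of day 3, with 10.4 ± 5.65 and 9.05 ± 8.04 on day 7 (SD, n = 3), so the group means of this ratio differed by less than their spread.

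To find the miRNAs most like bta-miR-224, the log2(normalized count + 1) profile of each of the 185 names with a mean of at least 10 normalized counts was centred on its own mean, and the root mean square difference between profiles was taken over the 12 libraries. The nearest 5 were bta-miR-1343-3p (0.33), bta-miR-190b (0.40), bta-miR-3431 (0.41), bta-miR-452 (0.50) and bta-miR-2285k (0.58), while the profile of bta-miR-224 itself varied by 1.59 on this scale. The mean of bta-miR-1343-3p was 26.1 normalized counts in DF at day 7 and 229.8 in the other 9 libraries, and that of bta-miR-3431 was 5.85 and 71.5. All of the 5 were thus low in the DF libraries of day 7. The profiles share libraries and size factors, so their likeness is a description.

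**Figure D2:**
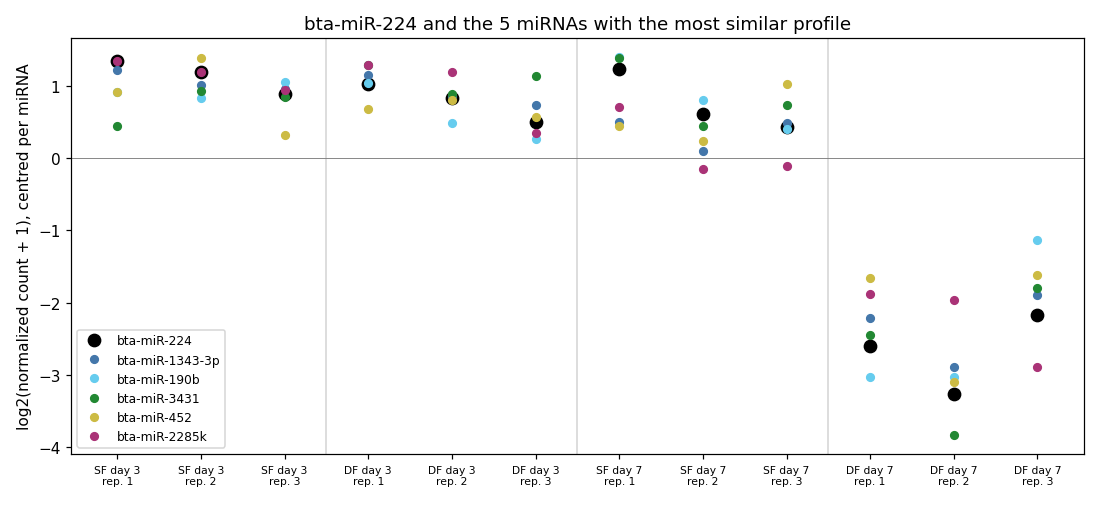
Profiles of bta-miR-224 (black) and its 5 nearest miRNAs over the 12 libraries, as log2(normalized count + 1) centred on the mean of each miRNA. In the DF libraries of day 7 the points of bta-miR-224 lie at -2.60, -3.27 and -2.18, and those of the other 5 are also below 0.

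The most abundant of the 5, bta-miR-378, had more reads at day 7 than at day 3 in both follicle classes, without reaching the thresholds. In the edgeR test across all names, a call needed a log2 fold change of 1 or more in either direction, an FDR up to 10% and an unadjusted p up to 0.05. The normalized counts in replicates 1 to 3 were 727, 710 and 830 for SF and 857, 672 and 804 for DF on day 3, then 1059, 1209 and 953 for SF and 1334, 2013 and 988 for DF on day 7. All libraries of day 7 lay above all of day 3, and the libraries of SF and DF overlapped on each day.

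In DF the mean of bta-miR-378 was 778 ± 95.2 at day 3 and 1445 ± 521 at day 7 (SD, n = 3; log2 fold change 0.88, SE 0.26, edgeR adjusted p = 0.0143), under the limit of 1. It was 1.09 and past the thresholds without DF replicate 3 of day 7. Within the DF libraries of day 7, the level was highest in replicate 2 and lowest in replicate 3. The summed leukocyte miRNAs (3110, 8636 and 783 normalized counts in replicates 1 to 3) and the sum of 3 erythrocyte miRNAs (1296, 2322 and 808) had the same order, and the part of either in the level was not tested. In SF the mean was 756 ± 64.7 at day 3 and 1073 ± 129 at day 7 (SD, n = 3; log2 fold change 0.53, SE 0.17, edgeR adjusted p = 0.156). For SF against DF it was -0.09 at day 3 (approximate 95% interval -0.39 to 0.21) and -0.36 at day 7 (-1.01 to 0.29), where the interval reached past the limit of 1. By the mir-378-1 entry the value at day 7 was -0.70 (edgeR adjusted p = 0.0974).

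The 2 precursor entries of bta-miR-378 did not keep the same ratio in all groups. Per 100 reads of mir-378-2 there were 57.8, 50.7 and 56.4 reads of mir-378-1 for SF and 54.1, 53.7 and 52.3 for DF on day 3, then 52.3, 58.4 and 58.3 for SF and 71.8, 70.9 and 72.3 for DF on day 7. The 3 DF libraries of day 7 were the highest and lay close together. The means differed by 18.3 reads per 100 between day 7 and day 3 in DF (exact two-sided permutation p = 0.1, adjusted p = 0.2 over 4 comparisons), and 0.1 is the smallest p that 3 against 3 libraries allow. Between SF and DF at day 7 the difference was -15.4 (exact permutation p = 0.1), and the other 2 comparisons differed by 1.62 and 1.35 (exact permutation p = 0.5 for each).

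With mir-378-1 in place of mir-378-2, the change of bta-miR-378 in DF passed the thresholds (log2 fold change 1.31, SE 0.26, edgeR adjusted p = 0.00108). Its normalized counts rose from 415 ± 51.7 at day 3 to 1033 ± 362 at day 7 (SD, n = 3) by this entry. This choice was made after seeing the data. Whether bta-miR-378 is called in DF thus depends on which of its precursors is counted.

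**Figure D3:**
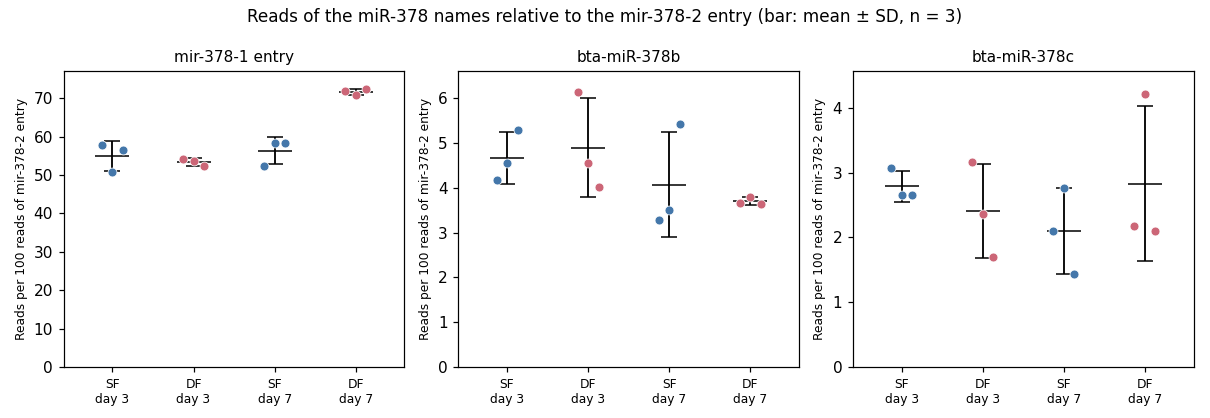
Reads of mir-378-1, bta-miR-378b and bta-miR-378c per 100 reads of the mir-378-2 entry of bta-miR-378 (vertical axes from 0) in the 4 groups. Points are libraries and bars the mean and SD. The mir-378-1 entry stands at 70.9 to 72.3 in DF at day 7 and at 50.7 to 58.4 elsewhere, and the other panels overlap between groups in most comparisons.

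The related bta-miR-378b and bta-miR-378c were much scarcer than bta-miR-378, with between 24 and 70 and between 14 and 51 raw reads in a library. Normalized counts of bta-miR-378b were 30.3, 32.3 and 43.98 for SF and 52.6, 30.6 and 32.3 for DF on day 3, then 34.8, 42.5 and 51.7 for SF and 48.8, 76.5 and 36.0 for DF on day 7. Every pair of groups overlapped, and none of its 4 comparisons was called, with log2 fold changes between -0.24 and 0.44. For bta-miR-378c the normalized counts were 22.3, 18.9 and 21.99 for SF and 27.1, 15.9 and 13.7 for DF on day 3, then 22.3, 33.4 and 13.6 for SF and 29.1, 84.8 and 20.7 for DF on day 7. The libraries of the 2 days overlapped in DF, and a single one, replicate 2 of DF at day 7, stood far above the rest.

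The change of bta-miR-378c in DF was called, from 18.9 ± 7.17 at day 3 to 44.9 ± 34.9 at day 7 (SD, n = 3; log2 fold change 1.16, SE 0.50, edgeR adjusted p = 0.0833). It rested on that library, as the log2 fold change was 0.36 without DF replicate 2 of day 7 (adjusted p = 0.461, edgeR). It was also lost without DF replicate 2 of day 3, at 1.02, and without DF replicate 3 of day 3, at 0.95. Between SF and DF the log2 fold change of bta-miR-378c was 0.11 at day 3 (approximate 95% interval -0.56 to 0.78) and -0.84 at day 7 (-2.12 to 0.43), and in SF it was 0.15 between the days (-0.71 to 1.02). The last 2 of these intervals reached past the limit of 1.

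With 21 reads over the 12 libraries, bta-miR-383 was at the limit of the depth. There were raw reads of 4, 3 and 1 for SF and 1, 5 and 0 for DF on day 3, then 3, 2 and 2 for SF and 0, 0 and 0 for DF on day 7. Each SF library had at least 1 read, 2 of the 3 DF libraries of day 3 had reads, and no DF library of day 7 did. Together the SF libraries of day 7 had 7 of 908489 kept reads, with an exact 95% Poisson interval of 2.81 to 14.4 reads. Those of DF at day 7 had 0 of 794884, with an interval up to 3.69 reads, so the intervals, which cover counting error only, overlapped.

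At day 7, bta-miR-383 passed the thresholds between SF and DF (edgeR adjusted p = 0.0387), while DESeq2 gave it a log2 fold change of 3.55 with an SE of 2.07 and no adjusted p. As DF at day 7 had no reads of it, bta-miR-383 entered this test only through SF, and the filter fixed its direction. With the replicate number as a block it did not pass (edgeR adjusted p = 0.110). After subsampling to the smallest library bta-miR-383 had too few reads at day 7 to be tested. Its change in DF between the days did not pass (adjusted p = 0.123, edgeR), with 6 reads at day 3. Between SF and DF at day 3 the log2 fold change was 0.92 with an approximate 95% interval of -0.96 to 2.81, which leaves the direction undecided at this depth. In SF it was -0.38 between the days (-1.997 to 1.25).

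Counted over the 5 miRNAs, none was called for SF against DF on day 3, by edgeR or by DESeq2, and none had an unadjusted p under 0.05 by either tool. Of the 335 names tested then, edgeR called 5.67% (19 names, and 10 without SF replicate 1 of day 3) and DESeq2 called 11 names. The groups did not overlap for 27.8% of the names and for none of the 5. At day 7, 2 of the 5 were called (bta-miR-224 and bta-miR-383), both higher in SF, where 33.4% of the 350 names were called and 15.1% as higher in SF. By DESeq2 it was 1 of the 5, beside 104 of the 350 names. The SF and DF libraries did not overlap for bta-miR-224 and bta-miR-383 alone of the 5. Over all names, 45.7% did not overlap in either direction and 22.6% with SF above DF. As bta-miR-383 had no reads in DF at day 7, it was tested only through its SF reads. The filter thus fixed its direction. Without regard to direction, the share of the 5 was near that of all miRNAs. With SF above DF, 1 of the 2 names was bound to that direction, so their count is not set against the share of all miRNAs.

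Between the days in DF, bta-miR-224 fell and bta-miR-378c rose, 2 of the 5, where 40.3% of the 360 names were called, 15.8% as lower and 24.4% as higher at day 7. The libraries of the 2 days did not overlap for bta-miR-224 and bta-miR-378, against 50% of all names, 25% in each direction. In SF, edgeR and DESeq2 called none of the 5 between the days, and bta-miR-378 had an unadjusted p under 0.05 by both. By edgeR, 0.593% of the 337 names were called in SF, a count of 2, and DESeq2 called 5. The edgeR count was 0 without SF replicate 1 or 2 of day 3 or SF replicate 2 of day 7. It was 4 without SF replicate 3 of day 3, 5 without SF replicate 3 of day 7 and 20 without SF replicate 1 of day 7. Of the 337 names, 13.9% did not overlap, 6.82% with day 7 above day 3, among them bta-miR-378. The interaction was called for bta-miR-224 alone of the 5, by edgeR and by DESeq2, and for 26.5% of the names tested, 12.2% with a positive value.

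**Figure D4:**
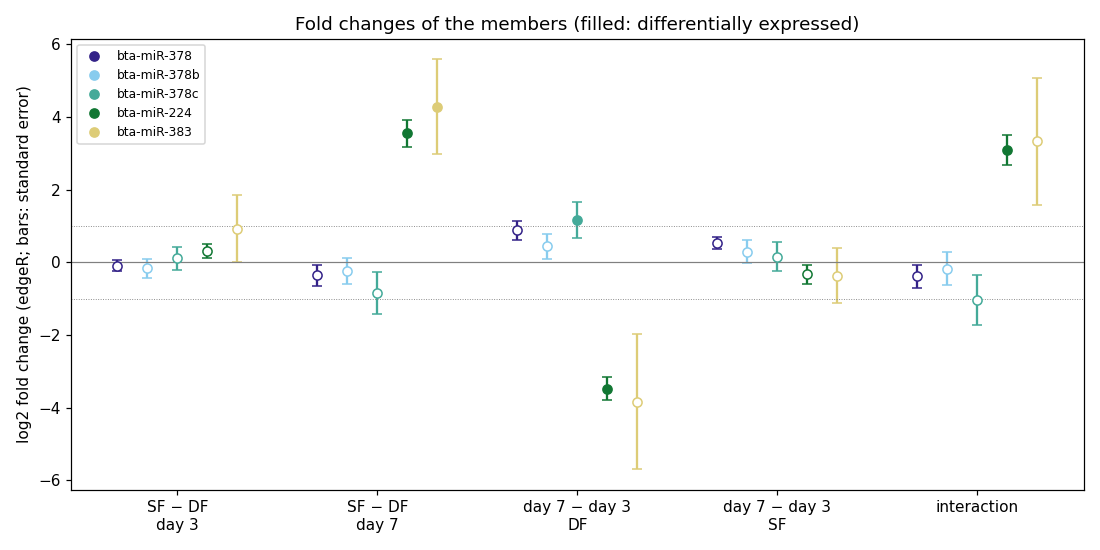
Log2 fold changes of the 5 miRNAs in the 4 comparisons and in the interaction (vertical axis, log2 scale), with bars of 1 standard error. Filled points were differentially expressed, and dotted lines mark the limits of 1 and -1. For bta-miR-224 the points are at 3.55 and -3.48 in the comparisons that use DF at day 7, and the value of bta-miR-383 depends on the prior count since DF at day 7 had no reads of it.

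For comparison, 11 other miRNAs known from granulosa cells to act on steroid synthesis or on gonadotropin, activin or steroidogenic factor signalling were counted. In SF against DF, 1 of the 8 tested was higher (bta-miR-212) and 1 lower (bta-miR-34a) at day 3, beside 5.67% of all names called. Both had few reads there, with at most 6 raw reads in a library for bta-miR-212 and at most 25 for bta-miR-34a. DESeq2 called none of the 8 at day 3, beside 11 of all 335 names, with an unadjusted p under 0.05 for 5 of the 8. At day 7, 1 of the 9 tested was higher (bta-miR-31) and 3 were lower (bta-miR-143, bta-miR-34a and bta-miR-181a), beside 33.4% of all names. Between the days in DF, 5 of 9 rose (bta-miR-132, bta-miR-143, bta-miR-145, bta-miR-34a and bta-miR-181a) and 1 fell (bta-miR-31), beside 40.3% of all names. In SF none of 8 passed by edgeR or DESeq2, beside 0.593% of all names by edgeR and 5 of 337 by DESeq2. None of the 8 had an unadjusted p under 0.05 by either. The interaction was called for 1 of 9 with a positive value (bta-miR-31) and for 4 with a negative value (bta-miR-132, bta-miR-143, bta-miR-145 and bta-miR-181a), beside 26.5% of all names. The median log2 fold change of the list was 0.59, -0.88, 1.73 and 0.07 in these 4 comparisons, beside -0.04, -0.05, 0.05 and 0.03 over all names tested.

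Within that list, bta-miR-31, which is known to act on the receptor of follicle stimulating hormone, shared the direction of bta-miR-224, with 1815 normalized counts in SF and 522 in DF at day 7 (log2 fold change 1.88, SE 0.29, edgeR adjusted p = 0.000833). The opposite direction was seen for bta-miR-181a, known to act on an activin receptor, with 999 and 5538 normalized counts (log2 fold change -2.40, SE 0.28, edgeR adjusted p = 0.000203). In DF, bta-miR-132, which is induced by cyclic AMP in granulosa cells, rose from 5.27 to 34.4 normalized counts between the days (log2 fold change 2.68, SE 0.44, edgeR adjusted p = 0.000213). For bta-miR-320a, known to act on steroidogenic factor signalling, the means lay between 138 and 204 normalized counts in the 4 groups and no comparison was called. The names bta-miR-122, bta-miR-133b and bta-miR-764 had 1, 4 and 0 reads in all. The list also holds the stromal miRNAs bta-miR-143 and bta-miR-145, whose sum was 10270 ± 3748 normalized counts in DF at day 7 and 2838 ± 921 at day 3 (SD, n = 3).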

How the data were processed

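Small RNA of 12 granulosa cell libraries was sequenced. The authors called bases with CASAVA 1.8.0, removed adapters and low-quality reads by cutadapt, used miRDeep2 with the UMD 3.1 genome and miRBase, and deposited raw read counts for each pair of mature miRNA and precursor. For names with several precursors, 1 entry, that with the highest total, was kept for each name.

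Groups and replicate numbers came from the labels. A name was tested if 2 of the 3 replicates of either group had 1 or more reads. The test was run on the raw counts of the 6 libraries of a comparison, or of all 12 for the interaction, in R 4.3.3 with edgeR 4.0.16 (two-sided quasi-likelihood F test, RLE factors, prior count 0.125), with Benjamini-Hochberg adjustment over all names tested. The authors tested with DESeq2, of which version 1.42.0 was used here as an alternative, beside other scalings, filters, precursor choices, a replicate block, subsampling and single replicates left out. The standard error is the log2 fold change divided by the root of F, and the approximate intervals use the residual plus prior degrees of freedom of the fit. Procedures were tested on simulated data. The 5 miRNAs, the lists and the tests were chosen with earlier results of these data known. Named were the 5 members, bta-miR-452, 11 other granulosa miRNAs, cell type markers and the 5 names nearest to a member in profile. Of the 11, values of their own in normalized counts are given for 4. Beside these stand raw reads of some with few reads and the stromal sum. Names of the same miR-378 number were left out of the nearest ones by name, not by sequence.

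Lists of erythrocyte, endothelial and stromal miRNAs were also summed. In normalized counts, the 3 erythrocyte miRNAs ranged from 315 to 1642 at day 3, 438 to 515 in SF at day 7 and 808 to 2322 in DF at day 7, and the 2 endothelial ones from 61.6 to 221 in all libraries.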

Additional observations from a re-analysis of the deposited data

Results flagged for a closer look

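The difference between SF and DF in bta-miR-224 changed with the day. The interaction of follicle class and day was tested over all 12 libraries and gave a log2 value of 3.097 (SE 0.42, edgeR adjusted p = 2.74e-05). For SF against DF the log2 fold change was 0.31 on day 3 and 3.55 on day 7. The interaction of bta-miR-383 was 3.33 (SE 1.75) and did not pass (adjusted p = 0.208, edgeR). DF at day 7 had no reads of it, so its size is poorly fixed. It ranged from 0.47 to 3.41 over the other settings and from 1.75 to 3.77 without single replicates. The DF libraries of day 7, on which these values rest, also had less bta-miR-202 and more leukocyte miRNA than the other libraries, and their part in the values was not tested.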

How the results depend on the processing

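The calls of bta-miR-224 held in every setting tried, with log2 fold changes of 3.42 to 3.70 for SF against DF at day 7, -3.63 to -3.38 between the days in DF and 3.07 to 3.15 for the interaction. Without single replicates these were 3.29 to 3.82, -3.75 to -3.29 and 2.81 to 3.38.

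At day 7, 1 of the 5 was called in place of 2, beside 104 of 350 names under DESeq2 and 115 with a replicate block. It was 1 beside 85 of 188 with a minimum of 10 reads in at least 3 libraries and 110 of 321 after subsampling. In these 2, bta-miR-383 was not tested. Its log2 fold change was 3.55 under DESeq2 and 4.29 with the block (adjusted p = 0.110, edgeR). Between the days in DF, 1 was called under TMM, library size alone, the 10-read minimum and a false discovery rate of 5%, and 1 to 3 without single replicates. The change of bta-miR-378c was then 1.14 under TMM, 1.046 under library size alone, 1.16 under the 10-read minimum, 1.15 with counts summed over precursors and 1.16 at the rate of 5%, and it was 0.36 to 1.51 without single replicates. That of bta-miR-378 passed with summed precursors at 1.01, after subsampling at 1.00, by mir-378-1 at 1.31 and without DF replicate 3 of day 7, with a range of 0.55 to 1.09 over single replicates left out. That of bta-miR-383 passed at -3.72 with all 12 libraries in one fit and at -3.88 with entries as listed. It was tested only through its day 3 reads, so the filter fixed its sign. It could be tested in only 4 of the fits without single replicates, ranged there from -4.33 to -3.82 and passed in 1 of them. Without single replicates some uncalled values changed sign. They ranged at day 3 from -0.35 to 0.13 for bta-miR-378b and from -0.050 to 0.46 for bta-miR-378c (-0.10 after subsampling), at day 7 from -0.49 to 0.10 for bta-miR-378b, in SF from -0.24 to 0.43 for bta-miR-378c and in the interaction from -0.43 to 0.17 for bta-miR-378b. The causes were not tested.

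As deviations from their group means, same-numbered SF and DF libraries correlated at -0.12, -0.06 and 0.01 on day 3 and 0.10, 0.08 and 0.13 on day 7 over 185 names. Libraries of different numbers were not correlated for reference, so whether the numbers pair the libraries cannot be decided from these values. The block changed no other call of the 5. Over all names, calls at day 3 were 19 of 335, 11 under DESeq2, 8 in one fit and 10 to 21 without single replicates. They were 12 of 187 under the 10-read minimum. In SF they were 2, and 5 under DESeq2, 12 with no filter, 0 under the 10-read minimum, 1 in one fit, 10 as listed, 7 with the block and 0 to 20 without single replicates. At day 7 the median of all names was -0.05 and moved to -0.13 under TMM and -0.20 under library size alone. In SF, calls split 1 higher to 1 lower, 2 to 1 under TMM and 1 to 2 under library size alone. With a minimum mean of 50 normalized counts, 3 of the 5 names nearest to bta-miR-224 were kept. The filter itself removed bta-miR-190b and bta-miR-452, which lie under that minimum. The lowest depth limits bta-miR-383 most, with at most 5 reads in a library.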

Other observations

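None of the miR-378 names had a neighbour that was close relative to its own spread. Over the 12 libraries, the root mean square of the centred log2(normalized count + 1) profile was 0.43 for bta-miR-378, 0.38 for bta-miR-378b and 0.66 for bta-miR-378c. The nearest names differed from them by most of that. They were bta-miR-324 at 0.34 for bta-miR-378, bta-miR-660 at 0.35 for bta-miR-378b and bta-miR-125b at 0.47 for bta-miR-378c. In contrast, the nearest name to bta-miR-224 was at 0.33 with a root mean square of 1.59 for bta-miR-224 itself. Next to these, bta-miR-2284x and bta-miR-2284y were near both bta-miR-378 (0.35) and bta-miR-378b (0.35) with the same counts as each other, so they count as 1 neighbour.

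Per 100 reads of bta-miR-202, bta-miR-378 had 101 to 553 reads in DF at day 7, 42.5 to 54.6 in SF at day 7 and 18.3 to 30.1 at day 3. The denominator itself was 364 to 976 normalized counts in DF at day 7 and 2213 to 3673 elsewhere, so the ratio moves with bta-miR-202, and in normalized counts bta-miR-378 overlapped between SF and DF at day 7.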
